A study of Homo sapiens with 6 samples.

Results

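The plakin family of cytolinkers, 7 genes in all, was followed in quiescent hTERT RPE1 cells whose microtubules had been challenged with combretastatin A4. The members were found by matching Ensembl IDs to the family's symbols, EPPK1, DSP, PLEC, DST, MACF1, PPL and EVPL, among the 38900 gene IDs of the table, and each symbol matched 1 ID. The family was singled out because EPPK1 is among the strongest rises of this comparison, and DSP was named with it when earlier results were known. For these 2 genes the values are therefore a description without a test. The other 5 were chosen by family name.

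The cells, hTERT RPE1, are a widely used human line of retinal pigment epithelial origin that carries telomerase. They were quiescent after 5 days at 100% confluency, and fresh medium was then applied for 6 hours. For 3 libraries the medium carried 100 nM combretastatin A4 (CA4), a small molecule that binds tubulin and depolymerizes microtubules, and in the other 3 it carried 0.1% DMSO, the solvent control. PolyA RNA was sequenced, and the libraries held from 19524936 to 22538004 reads. Because the labels do not say whether the replicates were grown or treated separately, p-values measure the spread between these libraries, which may be technical.

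Plakins are very large proteins that tie intermediate filaments to junctions, to actin and to microtubules. Desmoplakin (DSP) anchors keratin filaments at desmosomes, plectin (PLEC) anchors them at hemidesmosomes and focal adhesions, and epiplakin (EPPK1) is built of plakin repeats that bind filaments. Periplakin (PPL) and envoplakin (EVPL) pair with each other in the cornified envelope of skin, while the spectraplakins dystonin (DST) and MACF1 span actin and microtubules. DST and MACF1 bind microtubules through a GAS2 domain and follow growing plus ends through end-binding proteins, so the microtubule is itself a partner of this family.

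The members lie on 5 chromosomes of GRCh38, here in the gene models of GENCODE 29. EPPK1 (ENSG00000261150) spans chr8:143857324-143878464 and PLEC (ENSG00000178209) chr8:143915147-143976734, both on the minus strand. DSP (ENSG00000096696) spans chr6:7541575-7586717 on the plus strand and DST (ENSG00000151914) chr6:56457987-56954628 on the minus strand. MACF1 (ENSG00000127603) covers chr1:39081316-39487177 on the plus strand, PPL (ENSG00000118898) chr16:4882507-4960741 and EVPL (ENSG00000167880) chr17:76004502-76027452, the last 2 on the minus strand. The genes differ widely in build. The longest coding sequence ran from 5.27 kb in PPL to 22.8 kb in MACF1, which has 101 exons in that transcript, while a single exon of 15975 bases made up 99.8% of the EPPK1 transcript.

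Sequence bears on how well reads could be assigned to each member. In EPPK1, 50.8% of the 50-base words of the transcript occur more than once within it, and 1.81% occur in transcripts of other genes, PLEC being the gene that holds the most of them, with which it shares an exact run of 86 bases. In DSP, DST, MACF1 and PPL, 0% of such words were found in another gene. The share was 0.592% in PLEC, shared most with EPPK1, and highest in EVPL at 2.4%, shared most with EVPLL. The longest exact run that the transcripts of the paralogs DST and MACF1 share is 19 bases, shown here because no longer stretch of letters is the same in both.

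DST and MACF1 shared run: tcagagacaaatgggatac

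RefSeq promoters (GRCh38.p14, from 250 bases before to 50 after a start) were in the table used for DSP (1), DST (3) and MACF1 (3). Shown are the parts upstream of 1 start each of DSP, which was higher in CA4, and of DST and MACF1, which were not, cut where GENCODE 29 places an exon. Capitals mark matches to GGGCGG, the SP/KLF motif, on either strand, and in DST also 1 match to GGAATG, the TEAD motif, which overlaps a GGGCGG match by 1 base. The windows are chr6:7541421-7541574 (plus strand) for DSP, chr6:56954831-56955080 (minus strand) for DST and chr1:39408823-39409072 (plus strand) for MACF1.

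DSP: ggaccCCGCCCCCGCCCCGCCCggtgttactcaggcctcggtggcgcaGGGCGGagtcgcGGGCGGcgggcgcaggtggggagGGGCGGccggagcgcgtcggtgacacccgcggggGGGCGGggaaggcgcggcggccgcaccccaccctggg

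DST: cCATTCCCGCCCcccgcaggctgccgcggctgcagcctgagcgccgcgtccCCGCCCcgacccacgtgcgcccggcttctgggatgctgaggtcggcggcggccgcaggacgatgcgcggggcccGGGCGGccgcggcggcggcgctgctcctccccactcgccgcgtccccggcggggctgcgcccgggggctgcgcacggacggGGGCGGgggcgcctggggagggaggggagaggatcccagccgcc

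MACF1: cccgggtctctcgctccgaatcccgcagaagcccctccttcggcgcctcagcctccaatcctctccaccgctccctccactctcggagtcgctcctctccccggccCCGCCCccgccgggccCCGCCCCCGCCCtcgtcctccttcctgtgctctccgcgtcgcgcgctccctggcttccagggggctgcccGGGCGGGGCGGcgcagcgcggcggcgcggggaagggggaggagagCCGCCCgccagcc

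GGGCGG was found 7 times in the DSP stretch, 4 times in that of DST and 6 times in that of MACF1, some of them overlapping, and 45% of all 35116 promoter windows of 300 bases hold it at least once. The other 2 DST windows and the other 2 MACF1 windows held 0 matches to it. The full DSP window held 0 matches to the AP-1 motif TGANTCA, to GGAATG, to the SRF CArG box and to the NF-kB site. Among all promoters 7.71%, 14%, 1.29% and 5.91% hold these, in the same order. TGANTCA was found once after the start in the DST window shown in part above, and once after the start in another MACF1 window, which also held GGAATG. A match or its absence describes the letters of this window only.

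Values below are normalized counts, the reads of a gene divided by 1 factor per library, in which 1 read is worth close to 1. A gene was tested if its mean over the 6 libraries was at least 10, which 13928 genes and 6 of the 7 plakins reached. Fold changes are CA4 against DMSO on the scale log2(normalized count + 1), which understates changes of low genes, with limma's standard error (SE). Adjusted p-values are Benjamini-Hochberg values of limma's moderated two-sided test over all genes tested.

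EPPK1 stood at a low level in DMSO and several times higher in each CA4 library. In replicate order, the DMSO libraries gave 89.8, 67.3 and 93.1 normalized counts and the CA4 libraries 411, 413 and 558. These come from 93, 72 and 98 reads in DMSO and 425, 368 and 501 reads in CA4. The lowest CA4 library lay far above the highest DMSO library. The means were 83.4 ± 14 under DMSO and 461 ± 84.6 under CA4 (SD, n = 3 each), 5.52-fold higher in CA4. The log2 fold change was 2.45 (SE 0.20), the 38th highest of the 13928 genes tested and the 18th of the 11689 with a mean of at least 50. In bulk RNA, a change in how many cells express a gene and a change in its RNA per cell cannot be told apart, here or for the other members.

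DSP, an abundant transcript, was 2.12-fold higher in CA4. The DMSO libraries gave 19671, 12567 and 15720 normalized counts for replicates 1, 2 and 3, and those of CA4 38700, 28940 and 34269. All CA4 values lay above all DMSO values, and in each group replicate 1 was the highest and replicate 2 the lowest. Mean levels were 15986 ± 3559 and 33970 ± 4887 (SD, n = 3 each). The log2 difference was 1.1 (SE 0.17), the 311th highest of those tested. DSP took 28.9% ± 4.3 of all reads of the family under DMSO and 45.2% ± 2.61 under CA4 (SD, n = 3 each).

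PPL lay lower in CA4, but the difference missed the threshold. The 3 DMSO libraries held 118, 175 and 177 normalized counts and the CA4 libraries 45.4, 64.0 and 105, in replicate order. The groups did not overlap, although CA4 replicate 3 came close to DMSO replicate 1. From 156 ± 33.4 to 71.4 ± 30.4 (SD, n = 3 each), the log2 fold change was -1.18 (SE 0.33, 95% interval -1.94 to -0.42, limma adjusted p = 0.0842). Across the other fits the adjusted p ranged from 0.0129, with the replicate number as a block, to 0.238, without DMSO replicate 2, and it was 0.0207 in DESeq2 on the recovered reads.

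EVPL was at the edge of detection. It had 1 read in DMSO replicate 1, 27 reads in CA4 replicate 3 and 0 in the other 4 libraries, where 0 allows up to 3 reads by counting error alone. Its signal in CA4 thus came from 1 library. It was too low to be tested, so its fold is left out.

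PLEC, the member with the highest count in DMSO, showed no difference beyond the spread of the libraries. The 3 DMSO libraries had 25723, 22996 and 22889 normalized counts, and the 3 CA4 libraries 29660, 23488 and 23488. The groups overlapped, with CA4 replicate 1 alone above every DMSO library. The log2 fold change was 0.091 (SE 0.11, limma adjusted p = 0.68), and its 95% interval ran from -0.17 to 0.35.

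The spectraplakins DST and MACF1, which bind microtubules directly, did not differ beyond the spread of the libraries. DST had 4467, 5402 and 6341 normalized counts under DMSO, against 5183, 5462 and 5633 under CA4. The CA4 libraries all fell inside the range of the DMSO libraries. The log2 fold change of DST was 0.020 (SE 0.13, 95% interval -0.28 to 0.32, limma adjusted p = 0.948). MACF1 had 8569, 9020 and 10643 in DMSO and 8232, 10150 and 10166 in CA4, again overlapping. Its log2 fold change was 0.015 (SE 0.12, 95% interval -0.26 to 0.29, limma adjusted p = 0.958). The signs of PLEC, DST and MACF1 turned under other scalings: each was below 0 with quantile normalization and with libraries scaled to the same total.

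**Figure D1:**
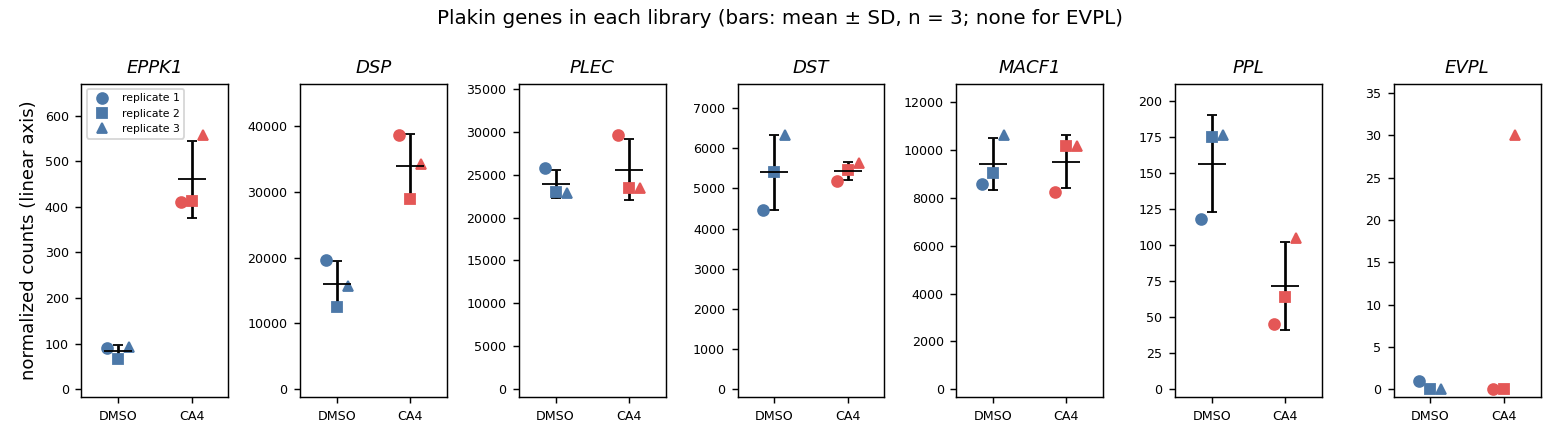
Normalized counts (linear axes, 1 panel for each gene) of the 7 plakins in the 3 DMSO (blue) and 3 CA4 (red) libraries, with symbols for the replicate numbers and bars for mean ± SD, left out for EVPL. EPPK1 and DSP are higher in all 3 CA4 libraries, PPL is lower in all 3, PLEC, DST and MACF1 overlap, and EVPL is seen mainly in CA4 replicate 3.

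The balance between the 2 spectraplakins was compared within each library, where the scaling cancels. The log2 ratio of DST to MACF1 was -0.940, -0.740 and -0.747 under DMSO, against -0.667, -0.894 and -0.852 under CA4. The difference of the group means was 0.0045 (two-sided exact permutation p = 1, where 3 against 3 cannot go below 0.1). The ratio thus differed less between the groups than among libraries of the same group.

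In limma, 4.94% of the genes entering the fit were past an adjusted p of 0.05, 2.97% upward and 1.97% downward. Among the 4 tested members that the choice did not use, PLEC, DST, MACF1 and PPL, 0 passed in limma, while 1, PPL, had an unadjusted p under 0.05, as had 23% of all genes tested. With edgeR on the recovered reads 0 passed, where 4.62% of all genes did. DESeq2 called 1, PPL, and 12.3% of all genes to which it gave an adjusted p. CA4 and DMSO libraries failed to overlap in 27.7% of the genes tested and in 3 of the 6 tested plakins, of which EPPK1 and DSP were picked with this contrast in view. Counts by direction depend in part on scaling: 413 genes were higher and 275 lower as deposited, against 279 higher and 523 lower with every library scaled to the same total, a scaling that moved the median log2 fold change of tested genes from -0.0082 to -0.109.

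**Figure D2:**
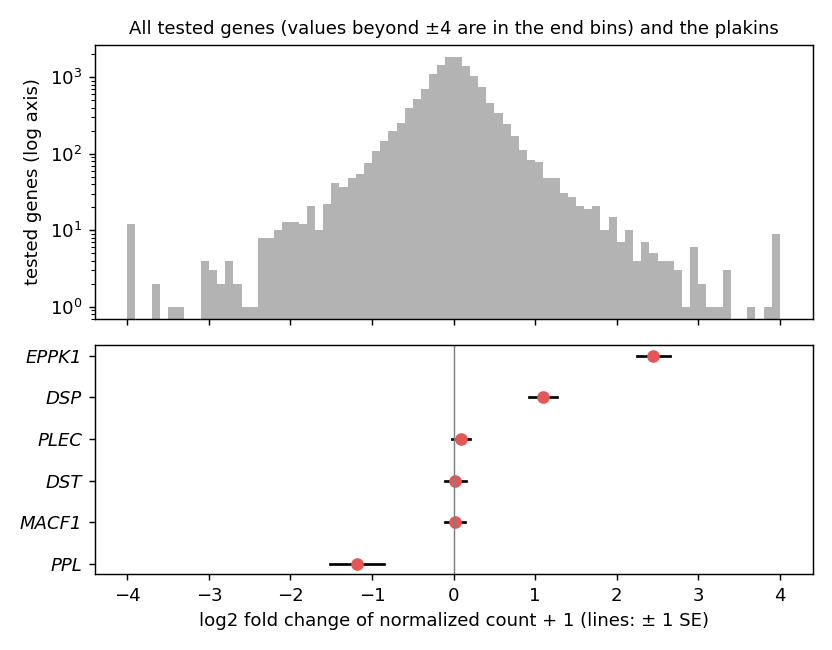
Upper panel, the number of tested genes (log axis) by log2 fold change in bins of 0.1, with values beyond 4 in either direction placed in the end bins; lower panel, the 6 tested plakins with lines of 1 SE. PLEC, DST and MACF1 sit at the centre of the distribution, EPPK1 (2.45) and DSP (1.1) to the right and PPL (-1.18) to the left.

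Levels of different genes were compared as normalized counts per kb of coding length, an approximate scale because untranslated bases and isoform use are left out. The level of EPPK1 has a further limit, since 50.8% of its 50-base words repeat within its transcript. How reads from such stretches were counted is not known. In DMSO, DSP (1856 ± 413) and PLEC (1699 ± 114; SD, n = 3 each) led the family with overlapping libraries, so their order is not resolved. MACF1 (413 ± 47.9) and DST (241 ± 41.9) followed, then PPL (29.7 ± 6.35) and EPPK1 (5.46 ± 0.919; SD, n = 3 each), with no overlap between neighbours in that order. In CA4, DSP was at 3944 ± 567 and stood clear of PLEC at 1818 ± 254 (SD, n = 3 each). At the lower end EPPK1 and PPL changed places, with EPPK1 between 26.9 and 36.6 and PPL between 8.62 and 19.9. EPPK1 thus went from above 1.57% to above 12.4% of the 12829 tested genes that have a coding length, and DSP from above 88.3% to above 94.3%. EVPL was lowest in both groups.

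**Figure D3:**
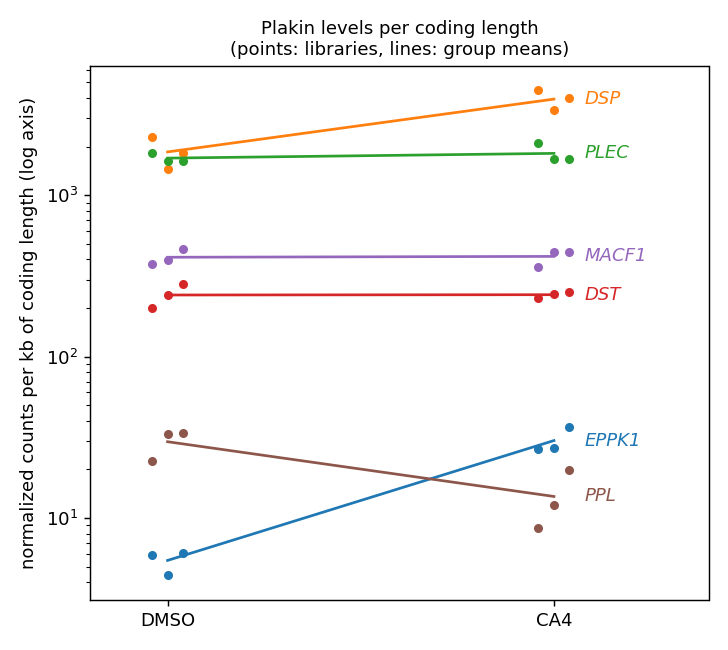
Normalized counts per kb of coding length (log axis) of 6 plakins in DMSO and CA4, with points for libraries and lines joining group means; EVPL, near 0, is not drawn. The lines of EPPK1 and PPL cross, and DSP separates from PLEC in CA4.

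The family as a whole took a larger share of the reads in CA4, 0.34% ± 0.0337 against 0.267% ± 0.0215 in DMSO (SD, n = 3 each). DSP, picked with this contrast in view, carries most of that difference in counts, since all members together summed to 54909 ± 4286 normalized counts under DMSO, against 74999 ± 6888 under CA4 (SD, n = 3 each). The share of PLEC within the family went from 43.6% ± 2.42 to 34% ± 2.26 although its own level overlapped between groups.

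EPPK1 and PLEC are immediate neighbours on chromosome 8, 35959 bases apart in RefSeq. The 5 nearest protein-coding genes on each side of EPPK1 were examined, of which 7 were tested, PLEC among them. Their log2 fold changes lay between 0.019 and 0.30, and 0 of the 7 passed in limma, as in edgeR and DESeq2, and 0 had an unadjusted p under 0.05. NRBP2, the neighbour on the other side, stood at 1958 ± 118 with DMSO and 2186 ± 161 with CA4 (SD, n = 3 each; log2 fold change 0.16, limma adjusted p = 0.35). Around DSP 8 of 10 neighbours were tested and 0 passed in limma, in edgeR or in DESeq2. Only RREB1 among these 8 had an unadjusted limma p under 0.05, and their log2 fold changes lay between -0.56 and 0.33. For the adjacent genes RIOK1 and SNRNP48 the log2 values were 0.27 and -0.19 (limma adjusted p = 0.488 and 0.51). Leaving out 1 library moved them between 0.113 and 0.46 for RIOK1 and between -0.31 and -0.064 for SNRNP48. In these windows the highest log2 fold change of a neighbour was 0.33, that of RREB1 near DSP. Around DST 2 of the 6 tested neighbours passed in limma, edgeR and DESeq2, both higher, where 4.94%, 4.62% and 12.3% of all genes did in either direction. They are RAB23 (log2 fold change 0.76, limma adjusted p = 0.0167) and BAG2 (0.72, 0.0352), singled out after their values were seen. RAB23 kept its call in 3 of the 6 fits that leave out a library, losing it without DMSO replicate 2, DMSO replicate 3 or CA4 replicate 3 (limma adjusted p up to 0.0819). BAG2 kept it only without DMSO replicate 1 among those 6 (up to 0.131), and lost it with libraries scaled to the same total (0.051). In the windows of MACF1, PPL and EVPL 0 neighbours passed in limma and edgeR, and DESeq2 called 1, near EVPL. At an unadjusted p under 0.05 there were 0, 0 and 1. The window of PLEC largely repeats that of EPPK1.

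**Figure D4:**
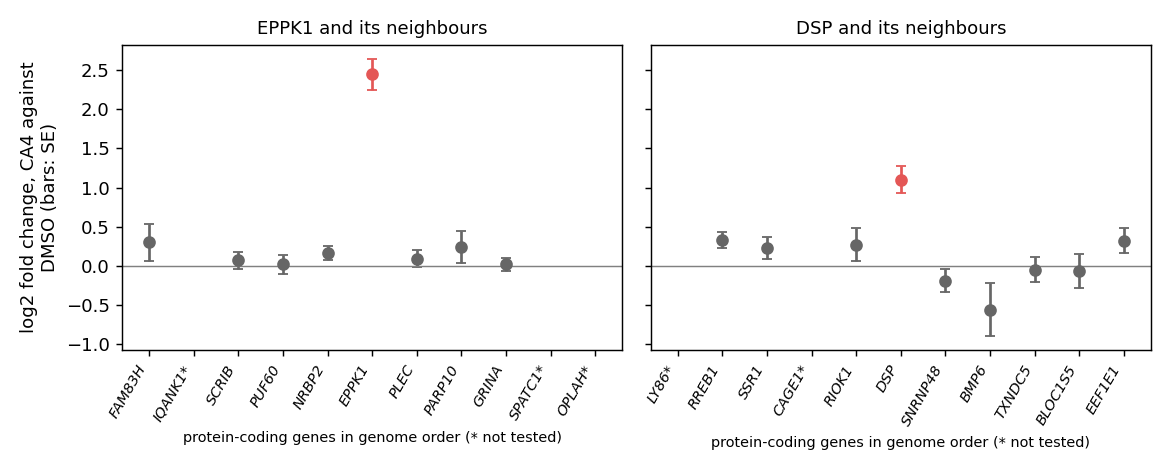
Log2 fold change (CA4 against DMSO, bars 1 SE) of EPPK1 and DSP (red) and of their 5 nearest protein-coding genes on each side (grey) in genome order, with untested genes starred. The grey points lie between -0.56 and 0.33, below EPPK1 at 2.45 and DSP at 1.1.

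The genes whose log2 values tracked a member most closely over the 6 libraries were named as a description; the 6 points share the treatment contrast. Among 11160 genes with a symbol and a mean of at least 50, the 5 most like EPPK1 by Pearson's r were RIMS1 (0.998), PDGFB (0.994), ETHE1 (0.993), SRA1 (0.993) and DGKH (0.992). That measure ignores the size of a change, and their log2 fold changes ran from 0.13 for ETHE1 to 1.98 for PDGFB. PDGFB, a growth factor subunit, averaged 246 ± 28.5 normalized counts under DMSO, against 987 ± 240 under CA4 (SD, n = 3 each). For DSP the 5 genes were ETF1 (1.00 after rounding), DGKD (0.998), KCNG1 (0.996), CD274 (0.996) and PSMD9 (0.995). Their log2 fold changes ran from 0.17 for PSMD9 to 2.4 for CD274. CD274, the immune ligand PD-L1, had 536, 213 and 291 normalized counts in DMSO and 2537, 1250 and 1565 in CA4. Like DSP, CD274 was highest in replicate 1 and lowest in replicate 2 of both groups. That shared order restates the choice of CD274 by its r with DSP. EPPK1 and DSP had an r of 0.946 with each other.

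None of the tested desmosomal partners of DSP passed the threshold in limma. The list held the desmosomal cadherins, plakoglobin, the plakophilins and PERP, 13 genes of which 9 were tested. It and the lists below were chosen with earlier results of these data known, so their counts are descriptions. In limma 0 of the 9 passed, as in edgeR and DESeq2, where 4.94%, 4.62% and 12.3% of all genes did. Against those shares, 0 of 9 does not set these partners apart. Of the 9, 4 had an unadjusted p under 0.05, against 23% of all genes. Their median log2 fold change was -0.27, against -0.0082 over all genes tested, and 8 of the 9 values were below 0. The desmocollins DSC2, DSC3 and DSC1, cadherins of the desmosome, had the smallest adjusted p-values. DSC2 averaged 217 ± 50.1 under DMSO, against 123 ± 38.5 under CA4 (SD, n = 3 each; log2 fold change -0.83, limma adjusted p = 0.125). DSC3 was at -0.27 and DSC1 at -1.21 (limma adjusted p = 0.16 and 0.173).

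Hemidesmosomal partners of PLEC and DST, 9 genes with 8 tested, had a median log2 fold change of 0.18, which was 0.043 with quantile normalization and 0.076 with libraries scaled to the same total. Here too 0 passed in limma and in edgeR, 1 passed in DESeq2, and 2 had an unadjusted p under 0.05, shares near those of all genes (12.3% and 23%). LAMA3, a laminin chain of the hemidesmosomal matrix, went from 16.7 ± 7.95 to 59.9 ± 21.3 (SD, n = 3 each; log2 fold change 1.81, limma adjusted p = 0.0615). The integrin subunit ITGA6 was at -0.37 and the laminin chain LAMB3 at 0.36 on that scale (limma adjusted p = 0.126 and 0.322). LAMB3 ranged from 0.17 without DMSO replicate 2 to 0.507 without DMSO replicate 1.

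Of the intermediate filament genes, 20 of 21 were in the table and 17 were tested, with a median log2 fold change of 0.30. That median changed sign with the library left out: it was -0.145 without DMSO replicate 3, -0.052 without CA4 replicate 3 and 0.553 without DMSO replicate 1. In limma 2 passed, both higher, where 2.97% of all genes did. Of the 17, edgeR called 2 and DESeq2 4 (4.62% and 12.3% of all genes). KRT80, a type II epithelial keratin, rose from 2867, 2848 and 2765 normalized counts in DMSO to 4095, 4178 and 4271 in CA4, by 0.56 on the log2 scale (SE 0.07, limma adjusted p = 0.0103). Its call was lost without DMSO replicate 3 (limma adjusted p = 0.0536). SYNC, which encodes the filament protein syncoilin, rose from 2025 ± 76.7 to 2794 ± 289 (SD, n = 3 each; log2 fold change 0.46, limma adjusted p = 0.0392). The call on SYNC was kept in 1 of the 6 fits that leave out a library, that without DMSO replicate 1, and its adjusted p reached 0.141 in the others. It was lost as well with quantile normalization (limma adjusted p = 0.0594) and with libraries scaled to the same total (0.0771). KRT18 missed the threshold (log2 fold change 0.46, limma adjusted p = 0.0849), and VIM, which encodes vimentin, went from 105133 ± 10755 to 110613 ± 6040 (SD, n = 3 each; limma adjusted p = 0.712).

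The list of microtubule end proteins and GAS2 domain relatives, 15 genes with 13 tested, had a median log2 fold change of -0.15, which lay nearer 0 without DMSO replicate 1 (-0.034), CA4 replicate 3 (-0.082) or CA4 replicate 2 (-0.092). GAS2L1, which links actin to microtubules through a GAS2 domain like that of the spectraplakins, was the 1 gene that passed in limma, where edgeR called 0 and DESeq2 4 of the 13. Over all genes limma called 4.94% (1.97% lower), edgeR 4.62% and DESeq2 12.3%. It fell from 962, 1049 and 1267 normalized counts in DMSO to 646, 814 and 618 in CA4, with a log2 difference of -0.66 (SE 0.15, limma adjusted p = 0.0494). That value is at the edge of the threshold: edgeR gave an adjusted p of 0.0525, and the call was lost with quantile normalization (limma adjusted p = 0.0568), with no filter (0.0546) and with a pseudocount of 0.1 (0.0503), and was kept in 2 of the 6 fits without a library, those without DMSO replicate 1 and without CA4 replicate 2, with an adjusted p of up to 0.16 in the others. MAPRE2, an end-binding protein, and CKAP5, a microtubule polymerase, gave log2 values of -0.52 and -0.45 (limma adjusted p = 0.0572 and 0.0999).

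Some relatives of the plakins with spectrin repeats or actin-binding domains were higher in CA4. Of 18 genes 16 were tested and 3 passed in limma, all higher, where 2.97% of all genes did. The list was chosen with earlier results of these data known, so its count past the threshold is a description. The count was 0 without DMSO replicate 2, DMSO replicate 3 or CA4 replicate 1. It was 1 when CA4 replicate 3 was dropped, 2 for CA4 replicate 2 and 4 for DMSO replicate 1. DESeq2 called 6 and edgeR 3 of the 16 (12.3% and 4.62% of all genes), and the median log2 fold change was 0.31. The alpha-actinins ACTN1 and ACTN4, which crosslink actin filaments, rose by 0.62 and 0.48 in log2 terms (limma adjusted p = 0.0179 and 0.0201). These calls on ACTN1 and ACTN4 were kept in 2 and 1 of the 6 fits that leave out a library, with limma adjusted p-values of up to 0.0736 and 0.0916. Both were lost without DMSO replicate 2, DMSO replicate 3 or CA4 replicate 1, that of ACTN1 also without CA4 replicate 3, and that of ACTN4 without any library other than DMSO replicate 1. With quantile normalization that of ACTN4 was lost too (limma adjusted p = 0.126). Their log2 fold changes stayed above 0 in each of these fits. The spectrins SPTAN1 and SPTBN1, which the list also holds, had log2 fold changes of -0.082 and -0.019.

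Most genes of the cornified envelope, the known setting of PPL and EVPL, were scarcely present. Of 13 genes 6 had no read in any library, among them involucrin (IVL) and loricrin, and 3 were tested. Of these 3, KAZN averaged 284 ± 44.1 normalized counts under DMSO and 273 ± 50.9 under CA4, and TGM1 57.2 ± 26.3 and 78.6 ± 11.5 (SD, n = 3 each). In limma, edgeR and DESeq2 0 passed, and 0 had an unadjusted p under 0.05. TGM1 was at 0.55 and KAZN at -0.063 in log2 terms (limma adjusted p = 0.418 and 0.876), TGM1 between 0.173 without DMSO replicate 1 and 0.876 without DMSO replicate 3, and TGM3, at 13.3 and 12.7 mean normalized counts, was too low and variable to give a direction.

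**Figure D5:**
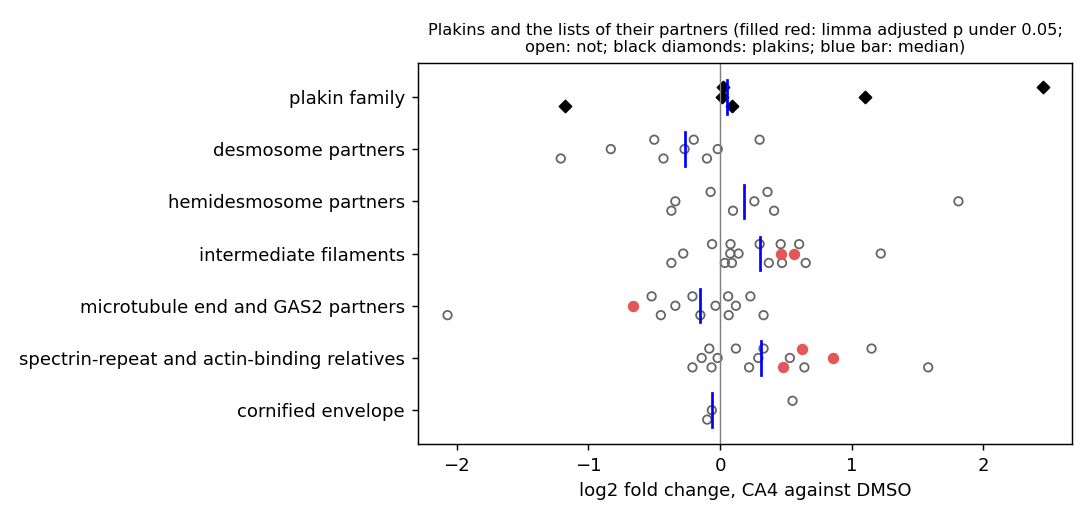
Log2 fold change (CA4 against DMSO) of each tested gene of the plakin family and of 6 lists of partners, with blue bars for medians, black diamonds for the plakins and red filled points for partners past a limma adjusted p of 0.05. Red points include the filament genes KRT80 and SYNC, GAS2L1, and the actin crosslinkers ACTN1 and ACTN4.

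Markers of other epithelia were checked because several plakins are keratinocyte genes. Of 11 keratinocyte and general epithelial markers 3 were tested. Of these 0 passed in limma, in edgeR or in DESeq2, and 0 had an unadjusted p under 0.05. EPCAM, GRHL2 and OVOL1 were under 2 mean normalized counts in both groups, and ESRP2, CLDN4 and CLDN7 between 2.88 and 6.02. Others were present: TP63 averaged 30.1 under DMSO and 20.2 under CA4, KRT5 53 and 60.6, and KRT14 92 and 102. CDH1 averaged 12.7 and 5.24 and reached 32.3 in DMSO replicate 3. ESRP1 averaged 1.89 and 12.7 and reached 30.3 in CA4 replicate 2. The list summed to between 102 and 294 in DMSO and between 48 and 310 in CA4. The keratins KRT5, KRT6A, KRT14, KRT16, KRT17 and KRT19, a set chosen after the values were seen, summed to 606, 706 and 2.85 normalized counts in DMSO and to 13.5, 829 and 717 in CA4, so that DMSO replicate 3 and CA4 replicate 1 stood apart from the rest. These keratins did not follow the treatment. Between those 2 libraries alone EPPK1 was at 93.1 and 411, DSP at 15720 and 38700 and PPL at 177 and 45.4, differences of 2.13, 1.3 and -1.94 on the log2 scale. The 27 reads of EVPL were in CA4 replicate 3, a library with these keratins. DMSO replicate 1, DMSO replicate 2 and CA4 replicate 2 held these keratins too, with EVPL at 0.966, 0 and 0 normalized counts. The part of these keratins in the EVPL value was not tested.

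The retinal pigment epithelium label was checked on 12 markers, of which 6 were tested, 2 with log2 fold changes above 0 and 4 below, and 1 called in limma and in edgeR and 2 in DESeq2 (4.94%, 4.62% and 12.3% of all genes). PMEL and SERPINF1 were at 0.30 and 0.15, BEST1 at -0.032 and MITF at -0.98 (limma adjusted p = 0.744, 0.871, 0.974 and 0.1). DCT and TTR were listed at 0 in every library, RPE65 was at 27.5 ± 11.5 under DMSO and 16 ± 2.78 under CA4, and OTX2, named after its values were seen, fell from 533 ± 104 to 244 ± 15.5 (SD, n = 3 each; log2 fold change -1.11, limma adjusted p = 0.0158). The call on OTX2 was kept without DMSO replicate 1 and without CA4 replicate 2, and lost in the other 4 fits that leave out a library (limma adjusted p up to 0.0816). All 10 mesenchymal markers were tested, with CDH2 higher and TWIST1 lower past the threshold in limma, while edgeR called 1 and DESeq2 4 of the 10. Both of these limma calls were kept only in the fit without DMSO replicate 1 among those 6. That of CDH2 was lost also in edgeR (adjusted p = 0.0501), with no filter (0.0818), and with quantile, same-total and 75th percentile scaling (limma adjusted p = 0.107, 0.121 and 0.0572). Without the variance trend the calls named here on KRT80, SYNC, GAS2L1, ACTN1, ACTN4, OTX2, CDH2, RAB23 and BAG2 were all lost, with limma adjusted p-values from 0.0565 for KRT80 to 0.118 for CDH2, and that on TWIST1 was kept. A separate list of genes known to lie directly beside or opposite a plakin gave 0 calls in limma, edgeR or DESeq2 among the 2 tested, BEND6 beside DST and PARP10 beside PLEC, at -0.30 and 0.24 in log2 terms (limma adjusted p = 0.412 and 0.545). PARP10 ranged from 0.115 without CA4 replicate 2 to 0.383 without CA4 replicate 1.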

How the data were processed

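PolyA RNA was sequenced in 6 libraries, 3 for each treatment, and groups and replicate numbers were taken from the titles. The members and gene lists were chosen with earlier results of these data known. The deposited values are a signal, reads of a gene divided by 1 scaling factor for each library; the file name calls them normalized counts. The submitters' processing notes list Trim Galore 0.6.6, FastQC 0.12.1, STAR 2.7.9a, Salmon 1.8.0, DESeq2 1.44.0 and GRCh38 without roles; annotation release and use of strand are not given in the sources used here. All values (100%) were whole multiples of 1 step within 0.01, so reads were recovered; they may be rounded estimates.

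Genes with a mean of at least 10 were fitted with limma 3.58.1 in R 4.3.3 on log2(value + 1), with treatment as the only term, a mean-variance trend and Benjamini-Hochberg adjustment over 13928 genes. Symbols came from the supplied table (29973 of 38900 IDs). Coding lengths, coordinates and transcripts are from GENCODE 29, and gene order and promoters from RefSeq GRCh38.p14; the planned protein comparison was not run. Coding lengths replaced the planned protein lengths. Named genes are the 7 members and up to 3 genes of each partner list with the smallest adjusted p. Also named are the 5 most correlated with EPPK1 and with DSP, and immediate neighbours. Others are marked or are markers, except that VIM, the spectrins, RREB1, IVL and loricrin were named outside this rule. The values of 1 gene that this rule names are not reported here.

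Alternatives were pseudocounts of 0.1 and 5, other filters and scalings, no variance trend, the replicate block, leaving out each library, and edgeR 4.0.16 (TMM) and DESeq2 1.42.0 on recovered reads. On simulated data from the same 13928 genes, with 200 changed 2-fold, limma found 51.5% of the changed genes, with 12.7% false among its calls, and DESeq2 66% with 24.6% false. A count of 0 allows up to 3 reads, by counting error only.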

Additional observations from a re-analysis of the deposited data

How the results depend on the processing

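EPPK1 and DSP kept their direction in every alternative run. Leaving out 1 library gave log2 fold changes from 2.30 to 2.54 for EPPK1 and from 0.94 to 1.26 for DSP. Between CA4 replicate 1 and DMSO replicate 3 alone, a pair chosen after the data were seen and a value with no test, EPPK1 was at 2.13, PPL at -1.94, PLEC at 0.37, DST at -0.29 and MACF1 at -0.37. The signs of PLEC, DST and MACF1 depended on the setting. With quantile normalization PLEC, DST and MACF1 were at -0.085, -0.077 and -0.071, and with libraries scaled to the same total at -0.010, -0.082 and -0.086. Scaling to the same 75th percentile gave -0.013 for DST and -0.017 for MACF1. Without 1 library PLEC ran from -0.021 to 0.147, DST from -0.11 to 0.143, MACF1 from -0.049 to 0.116, and the DST to MACF1 difference from -0.064 to 0.0493. TGM3 ran from -1.56 to 1.31 and KAZN from -0.209 to 0.0538. In these fits none of PLEC, DST and MACF1 passed the threshold.

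The count of genes past the threshold, 688, was 103 without the variance trend, 1613 in DESeq2 and from 81 (without DMSO replicate 3) to 994 (without DMSO replicate 1) when 1 library was left out; the cause was not tested. PPL passed in DESeq2 (-1.14, adjusted p = 0.0207) and with the replicate number as a block (-1.18, adjusted p = 0.0129). With that block 2397 of the 13928 genes tested passed. Among them were 3 of 9 tested desmosome partners, all lower, and 4 of 8 hemidesmosome partners, 3 higher and 1 lower. The others were 4 of 17 filament genes, 4 of 13 microtubule end partners and 8 of 16 spectrin-repeat and actin-binding relatives, besides genes outside these lists. Deviations of same-numbered libraries correlated at 0.202, 0.159 and 0.0588. The numbers were not treated as pairs, since 1 pair was under 0.1 and the labels name no shared source, although 5 of 6 libraries correlated best with their own number. EVPL was under the filter in every fit but that without one. At these depths a gene at the level of EVPL cannot be compared.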
